A study of Mus musculus with 4 samples.

Results

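The 4 surfactant protein genes Sftpc, Sftpb, Sftpa1 and Sftpd were followed in mouse lung cells and lung organoids. They were chosen by symbol, and are 4 of the 22547 features counted in each library. They were measured by droplet single-cell RNA-seq in cells of Gramd2creERT2;mTmG mice, in which tamoxifen-inducible Cre is made where Gramd2 is active, mainly in alveolar type I (AT1) cells, and switches the cell from membrane tdTomato to membrane GFP. Day 0 was GFP+ cells sorted from the lung, and days 8, 13 and 20 were organoids grown from such cells with MLg, a mouse lung fibroblast line, in Matrigel with SB 431542, an inhibitor of TGF-beta receptors, and enriched for EpCAM-bearing cells on beads before loading. All 4 samples carried both transgenes, the labels give no ages, and there was a single library per day (1 each). Differences between days therefore have no replicates behind them, and the 95% intervals below cover counting error only.

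Pulmonary surfactant is a film of lipid and protein that lowers surface tension in the alveoli. Surfactant proteins B and C, from Sftpb and Sftpc, are small hydrophobic proteins that spread the lipid film, and Sftpc serves as the usual marker of alveolar type II (AT2) cells. Surfactant proteins A and D, from Sftpa1 and Sftpd, are collectins, lectins with a collagen stem that bind microbes and take part in surfactant turnover, and airway secretory (club) cells are known to make surfactant proteins A, B and D as well.

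In GRCm38, Sftpc (ENSMUSG00000022097) lies on chr14:70520949-70524081, minus strand, and Sftpb (ENSMUSG00000056370) on chr6:72304610-72314371, plus strand. Sftpa1 (ENSMUSG00000021789) lies on chr14:41131782-41136452, plus strand, and Sftpd (ENSMUSG00000021795) on chr14:41172214-41185149, minus strand. The collectin genes Sftpa1 and Sftpd therefore neighbour each other on chromosome 14, with 35761 bases between them. Promoter sequences were available only for Sftpb and Sftpa1, which are shown because the factors known to bind such promoters were measured in the same cells. The RefSeq promoter table for GRCm38.p6 held 2 of the 4 genes, and each sequence runs from 250 bases before to 50 bases after the gene's RefSeq start, 5′ to 3′. The core of the NKX2-1 motif (TCAAG, or CTTGA on the other strand) is in capitals. For Sftpa1 this start lies a few bases after the start of the coordinates above, and positions below are counted from the RefSeq start.
Sftpb, chr6:72304360-72304659, plus strand: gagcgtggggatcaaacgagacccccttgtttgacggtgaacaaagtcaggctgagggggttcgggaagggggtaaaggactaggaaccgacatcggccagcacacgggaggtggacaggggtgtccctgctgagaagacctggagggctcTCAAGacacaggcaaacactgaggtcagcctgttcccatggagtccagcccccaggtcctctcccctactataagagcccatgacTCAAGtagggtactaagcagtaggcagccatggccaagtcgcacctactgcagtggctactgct
Sftpa1, chr14:41131538-41131837, plus strand: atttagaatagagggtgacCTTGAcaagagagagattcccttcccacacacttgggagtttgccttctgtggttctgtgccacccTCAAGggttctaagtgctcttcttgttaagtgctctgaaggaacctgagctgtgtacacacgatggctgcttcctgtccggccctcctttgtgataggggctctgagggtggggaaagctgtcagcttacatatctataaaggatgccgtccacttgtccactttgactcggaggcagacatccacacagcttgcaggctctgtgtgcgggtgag
The Sftpb promoter held the NKX2-1 core at -99 to -95 and -14 to -10, counted from the gene's start, and the Sftpa1 promoter at -165 to -161 and, on the minus strand, at -231 to -227. The FOXA core TGTTTNC occurred once in Sftpb, on the minus strand at -88 to -82, and the C/EBP core TTNNGNAA once, at -190 to -183. Both promoters held TATAAN at -30 to -25. Among 32817 promoters of the same length, 40.7% held the NKX2-1 core on either strand, 20.5% the FOXA core, 40.7% the C/EBP core and 24.8% TATAAN, and no match overlapped a match of another of these motifs. These matches describe letters only.

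At days 0, 8, 13 and 20 there were 8902, 11390, 11445 and 10368 barcodes, with 31850454, 154258012, 120905926 and 149916314 UMIs (unique molecule tags, 1 per captured RNA). Barcodes with at least 500 genes and at most 15% mitochondrial UMIs numbered 7350, 7893, 9311 and 9178, with median depths of 2559, 17075, 9527 and 12791 UMIs, so the sorted library was the shallowest by far. The pairs of libraries shared between 25 and 41 barcode sequences. Cell classes were built from clusters computed without the 4 genes, and 6827, 7174, 8458 and 8417 cells remained after doublet removal. The labels call the cells alveolar epithelial, while most cells of each culture were macrophage-like or fibroblast-like, and the day 0 library held 1378 endothelial-like and 1172 lymphoid-like cells beside 470 AT1-like and 84 AT2-like cells.

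Over all kept cells the surfactant protein genes made up 0.296, 0.751, 1.51 and 1.51% of UMIs at days 0, 8, 13 and 20. Sftpc led at every day, with 2256, 6042, 12521 and 13895 CPM (UMIs of a gene per 1000000 UMIs of all genes). Sftpb had 182, 529, 814 and 580 CPM, Sftpa1 435, 666, 1173 and 409 CPM, and Sftpd 82.5, 276, 583 and 266 CPM. Sftpc was therefore highest at day 20, while Sftpb, Sftpa1 and Sftpd were highest at day 13. The kit counts 1 tag per molecule at its 3′ end, so levels of different genes are compared as CPM with no scaling by length. In these pooled values, a change in the number of expressing cells and a change in RNA per cell cannot be told apart.

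AT2-like cells, 84, 414, 558 and 624 at days 0, 8, 13 and 20, held most of this RNA. They expressed their 12 markers, none of them a surfactant protein gene, at a summed level of 23578, 15714, 17008 and 18041 CPM, and 12, 11, 12 and 12 of these markers passed 20 CPM. The surfactant protein genes took 17.4, 13.0, 15.8 and 20.4% of all UMIs in these cells. Of the Sftpc UMIs in classified cells, AT2-like cells held 87.9, 93.3, 93.1 and 97.4%, although they were a small minority of each library. Of the Sftpd UMIs they held only 58.9, 74.7, 59.8 and 60.2%.

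In AT2-like cells Sftpc had 141484 CPM at day 0 (140299 to 142677), 108569 at day 8, 135681 at day 13 and 190371 at day 20 (190092 to 190650). The lowest library was day 8 and the highest day 20. Sftpb had 8314, 7784, 7476 and 6553 CPM at days 0, 8, 13 and 20, a narrower range than any other member. Sftpa1 had 20781, 9938, 11052 and 4998 CPM, the widest range of the 4, with day 0 highest and day 20 lowest. Sftpd had 3646, 3855, 4037 and 2230 CPM, with day 20 below the other 3 libraries. The order of levels was Sftpc, Sftpa1, Sftpb and Sftpd at days 0, 8 and 13, and Sftpc, Sftpb, Sftpa1 and Sftpd at day 20, with no overlap between the counting intervals of neighbouring genes.

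**Figure D1:**
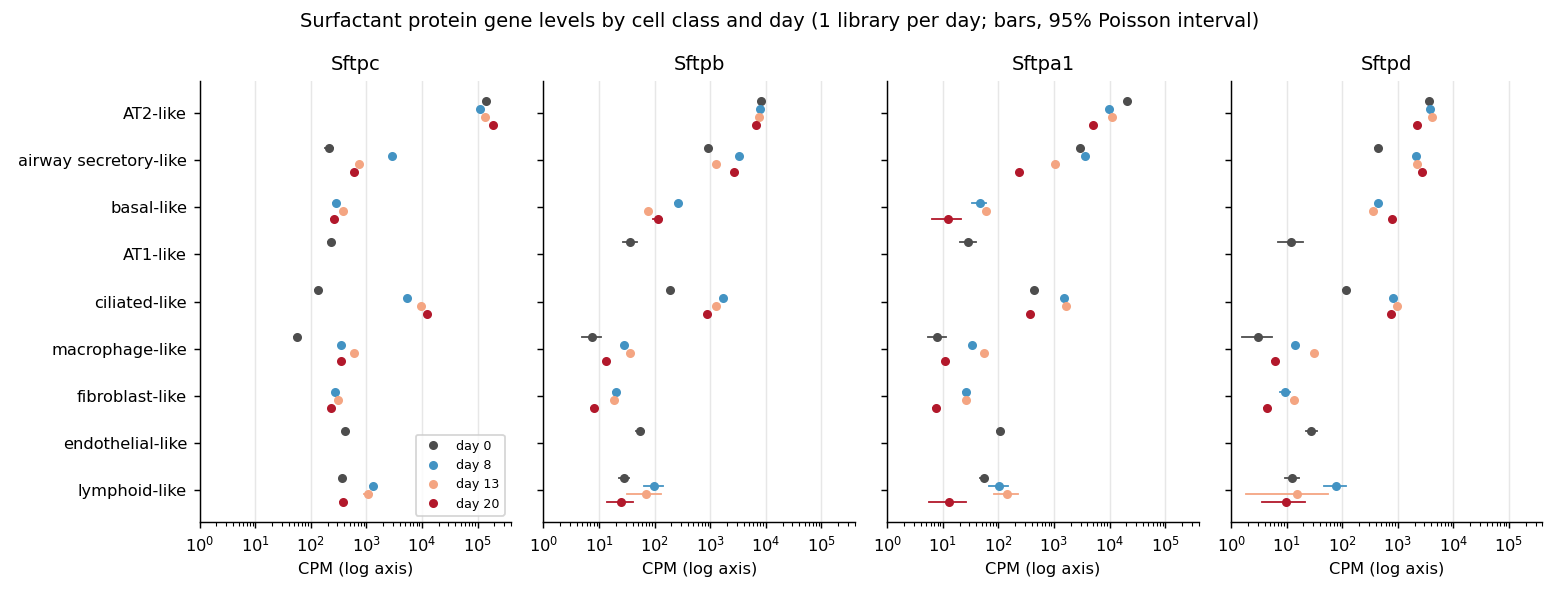
Level of each gene (CPM, log axis) in the summed UMIs of each cell class, with 1 point per library coloured by day and bars for the 95% Poisson interval. Sftpc lies between 108569 and 190371 CPM in AT2-like cells and between 56.4 and 594 CPM in macrophage-like and fibroblast-like cells, while Sftpb, Sftpa1 and Sftpd reach airway secretory-like cells at 237 to 3679 CPM.

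Between days, a gene was called when its ratio was 2-fold or more in either direction, its interval excluded 1 and its level was 20 CPM or more in at least 1 of the libraries. Sftpa1, which encodes the collectin surfactant protein A, was the only member called, and was lower on the later day in 3 of the 4 comparisons, which share libraries. Its ratio was 0.478 (0.467 to 0.490, log2 -1.06) at day 8 against day 0, 0.452 (0.447 to 0.457, log2 -1.14) at day 20 against day 13, and 0.241 (0.235 to 0.246, log2 -2.06) at day 20 against day 0. At day 13 against day 8 its ratio was 1.11 and no member was called. Over all genes tested in AT2-like cells, the same rule called 18.7% lower and 11.7% higher of 6362 at day 8 against day 0, so 1 of 4 members lower there stands beside a broad background. It called 1.43% lower and 0.847% higher of 5313 at day 13 against day 8, and 2.48% lower and 1.54% higher of 5201 at day 20 against day 13. At day 20 against day 0 it called 20% lower and 7.63% higher of 6131. With composition-adjusted (TMM) scaling of the same genes, the shares called lower and higher were 12.9 and 17.4% at day 8 against day 0, 1.11 and 1.04% at day 13 against day 8, 2.19 and 1.90% at day 20 against day 13, and 9.17 and 15.5% at day 20 against day 0, so the balance of directions in the comparisons with day 0 turned with the scaling. Sftpa1 ranked 5105 of 5201 genes from the top at day 20 against day 13, against 5222 of 6362 at day 8 against day 0. With TMM scaling the Sftpa1 value at day 8 against day 0 was log2 -0.81 and no longer met the 2-fold rule.

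The other members stayed inside 2-fold. Sftpd had a ratio of 0.552 (0.543 to 0.562, log2 -0.86) at day 20 against day 13, rank 5026 of 5201, and Sftpc one of 1.40 (log2 0.49), rank 354. Sftpc had ratios of 0.767 at day 8 against day 0, 1.25 at day 13 against day 8 and 1.35 at day 20 against day 0. Sftpb had ratios of 0.936, 0.960 and 0.877 over the 3 successive steps and 0.788 at day 20 against day 0, but under TMM scaling the log2 values of 3 of these 4 were above 0 (0.16, 0.03 and 0.07, with -0.12 at day 20 against day 13). The median log2 ratio over all tested genes was -0.16, -0.07 and -0.08 at the successive steps and -0.33 at day 20 against day 0, and TMM scaling moved all of them up by 0.25, 0.09, 0.07 and 0.41.

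**Figure D2:**
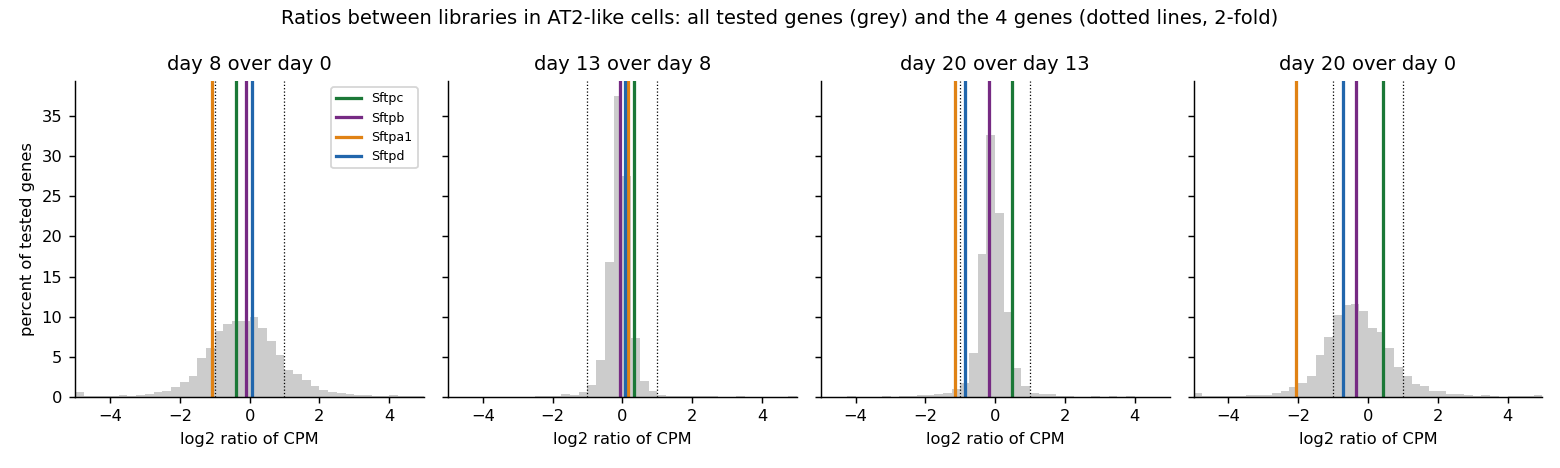
Log2 ratio of CPM between 2 libraries in AT2-like cells (later over earlier day) for all tested genes (grey, percent of tested genes per bin, values beyond 5 placed in the end bins) and for the 4 genes (coloured lines), with dotted lines at 2-fold. Sftpa1 lies at -1.06, 0.15, -1.14 and -2.06 across the panels, ranking 5222 of 6362, 979 of 5313, 5105 of 5201 and 5915 of 6131 genes from the top.

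Markers of other cells and depth also differed between the AT2-like cells of the 4 days. Their median depth was 4027, 12296, 13542 and 14081 UMIs. Macrophage markers summed to 54, 390, 626 and 255 CPM in them, over 14 markers of which 5, 0, 1 and 1 were at 0. Airway secretory markers summed to 8582, 18764, 26179 and 33696 CPM, over 12 markers of which 3, 8, 8 and 8 passed 20 CPM and 7, 1, 1 and 2 were at 0. Most of that sum was Scgb1a1, the club cell secretoglobin, with 8177, 15963, 23077 and 30959 CPM. At day 0 endothelial-like cells had a similar Scgb1a1 level, 7847 CPM, whereas macrophage-like cells of the cultures had 83.6, 198 and 152 CPM at days 8, 13 and 20. The part of these differences in the levels of the 4 genes was not tested.

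The composition of surfactant RNA in AT2-like cells moved toward Sftpc. Sftpc made up 81.2, 83.4, 85.7 and 93.2% of the 4 genes' UMIs at days 0, 8, 13 and 20. Sftpa1 made up 11.9, 7.64, 6.98 and 2.45%, Sftpb 4.77, 5.98, 4.72 and 3.21%, and Sftpd 2.09, 2.96, 2.55 and 1.09%. The Sftpa1 share was thus largest at day 0 and smallest at day 20, and at day 20 all 3 minor shares were at their lowest. These shares do not depend on how the libraries are scaled.

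**Figure D3:**
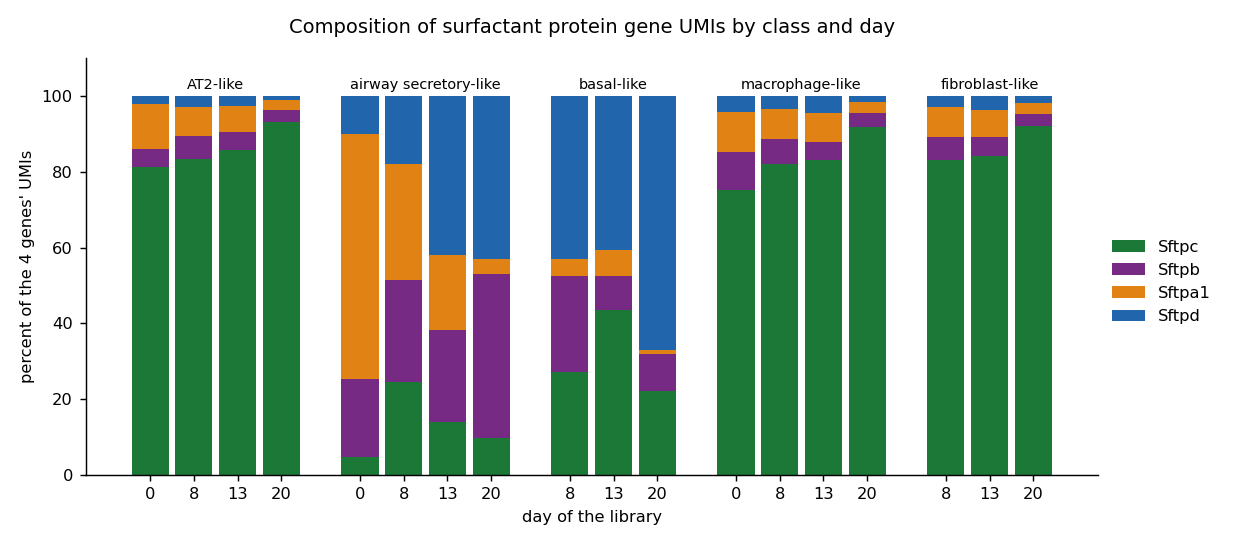
Percent of the 4 genes' summed UMIs that belong to each gene (stacked bars), by class and by day of the library. Sftpc fills 81.2 to 93.2% of the bars of AT2-like cells and 75.3 to 92.1% of those of macrophage-like and fibroblast-like cells, while Sftpb, Sftpa1 and Sftpd fill most of each bar of airway secretory-like cells.

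The organoids held a tail of AT2-like cells with low Sftpc shares that was not seen at day 0. In the 80, 405, 537 and 603 cells with at least 20 UMIs of the 4 genes, the Sftpc share per cell had medians of 79.9, 82.4, 84.8 and 93.2% and standard deviations over cells of 5.40, 21.2, 25.7 and 20.3 percentage points, where sampling of UMIs alone gives 1.84, 2.02, 1.58 and 1.15. The quartiles were 77.1 and 84.5% at day 0, 73.0 and 87.9% at day 8, 76.4 and 90.4% at day 13, and 89.5 and 95.9% at day 20, and the 5th percentiles were 71.9, 20.0, 7.18 and 31.8%. Sftpc was the most abundant member in all 80 of these cells at day 0 and in 368 of 405, 471 of 537 and 565 of 603 cells at days 8, 13 and 20. The other 37, 66 and 38 cultured cells had Sftpc at 2072, 2673 and 1672 CPM in sum, Sftpb at 5460, 4896 and 4066 CPM and Sftpd at 3029, 4286 and 2960 CPM. The same cells carried AT2 markers at 4861, 5131 and 3035 CPM, against 16779, 18743 and 18970 CPM in the cells led by Sftpc. They carried AT1 markers at 7488, 8631 and 6848 CPM, against 4312, 3855 and 3796 CPM, and airway secretory markers at 23409, 58302 and 62264 CPM, against 18455, 21898 and 32229 CPM. Scgb1a1 made up most of the airway sums, with 21820, 53306 and 54455 CPM in the cells led by another member, against 15528, 19047 and 29765 CPM in the cells led by Sftpc. Macrophage markers summed to 332, 559 and 1126 CPM in the cells led by another member, against 396, 613 and 206 CPM in the cells led by Sftpc. The AT2-like class of the cultures therefore held a minority of cells that were low in Sftpc and in the AT2 markers. These cells had higher sums of AT1 markers and of Scgb1a1, and at day 20 of macrophage markers too.

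Sftpa1 also varied between cells with ample surfactant RNA. Among AT2-like cells with at least 1000 UMIs of the 4 genes, 29, 235, 368 and 468 at days 0, 8, 13 and 20, 0, 0, 7 and 52 cells had no Sftpa1 UMI, and 0, 12, 44 and 195 cells had an Sftpa1 share under 1%. The median share in these cells was 11.4, 6.77, 5.34 and 1.62%, with a 5th to 95th percentile range of 6.98 to 16.3% at day 0 and 0 to 6.71% at day 20. No such cell lacked Sftpb or Sftpd at any day, although Sftpd had the smaller median share, 1.52, 2.54, 2.04 and 0.85%. After thinning each cell to 2000 UMIs, 98.5, 91.0, 88.0 and 69.1% of AT2-like cells had an Sftpa1 UMI, beside 1.65, 7.41, 11.2 and 2.50% of macrophage-like cells. Sftpc was detected in 98.5, 97.7, 97.6 and 98.0% of the same thinned AT2-like cells.

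**Figure D4:**
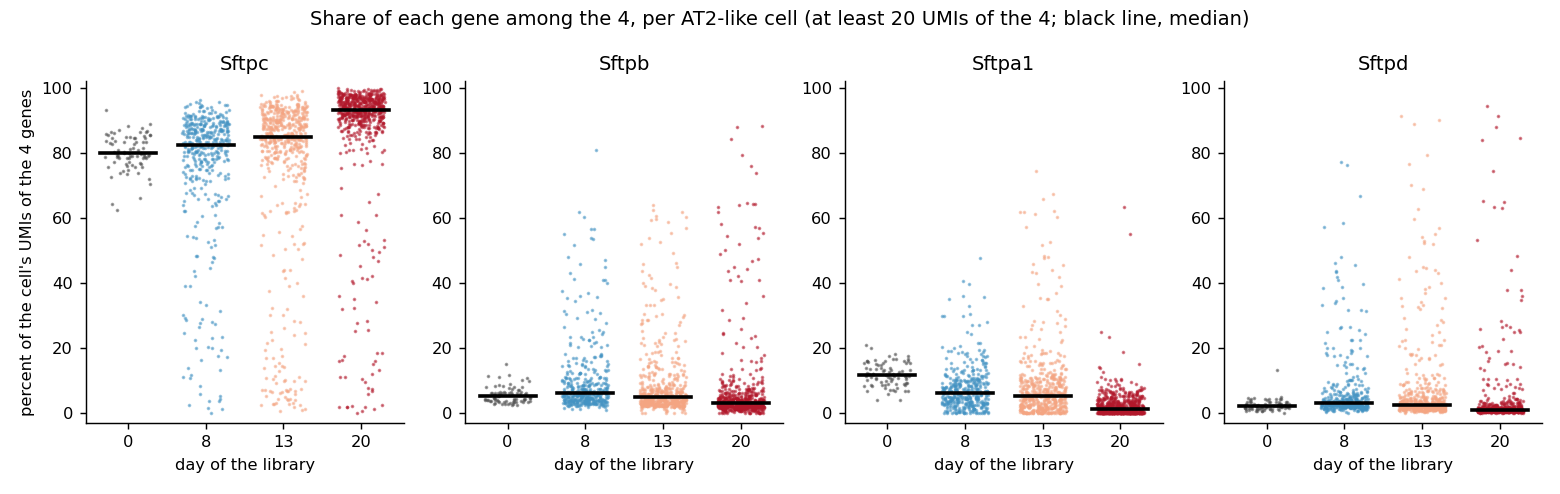
Share of each gene among the UMIs of the 4 genes in single AT2-like cells with at least 20 such UMIs (percent, 1 dot per cell, black line at the median), by day of the library. At day 0 the Sftpc shares lie close to their median of 79.9%, while the cultures show a tail of cells with low Sftpc shares, and the Sftpa1 median is 1.16% at day 20.

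Over AT2-like cells thinned to 2000 UMIs (68, 398, 540 and 589 cells), the correlation of log2(UMI + 1) between Sftpc and Sftpa1 was 0.82, 0.63, 0.41 and 0.37 at days 0, 8, 13 and 20. Between Sftpc and Sftpb it was 0.74, 0.53, 0.46 and 0.30, and between Sftpc and Sftpd 0.46, 0.32, 0.10 and 0.00. These describe cells of 1 library each, which share that library's depth and composition. Spearman's rho was lower in most cases, 0.58, 0.57, 0.36 and 0.37 for Sftpc and Sftpa1. Of the 3 other members, Sftpd had the lowest r with Sftpc at every day.

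A finer clustering split the AT2-like cells by their other genes, and the 4 genes differed between the pieces. Cells led by Lyz1, Retnla and Rbp4 had Sftpc at 96352, 118525 and 150755 CPM at days 8, 13 and 20, while cells led by Slc34a2, Cxcl15 and S100g had 138401, 177439 and 231917 CPM. Sftpa1 in the Lyz1-led cells was 9628, 12523 and 3020 CPM, against 10943, 11360 and 7069 CPM in the Slc34a2-led cells. Another piece of 38, 63 and 59 cells was AT1-like at that resolution, with the AT1 gene Ager at 5614, 9179 and 9403 CPM. These cells had Sftpc at 75848, 52865 and 119438 CPM but Sftpa1 at only 1932, 962 and 459 CPM, at median depths of 6966, 8046 and 2052 UMIs. Their clusters were built on the other genes of these cells, so these are descriptions with no test.

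Surfactant levels were close in AT2-like cells with either reporter. Cells in which EGFP made up at least 80% of 2 or more reporter UMIs had Sftpc at 120572, 144886 and 190110 CPM at days 8, 13 and 20 (58, 105 and 81 cells), against 111319, 139345 and 190073 CPM in cells in which tdTomato did (124, 210 and 154 cells). Sftpa1 was 8616, 10567 and 5663 CPM in the EGFP cells and 11060, 11975 and 5488 CPM in the tdTomato cells. Cells with at least 2 UMIs of cell cycle genes after thinning had Sftpc at 99766 CPM at day 8 and 112104 CPM at day 13 (45 and 26 cells), against 110038 and 137727 CPM in the other AT2-like cells. Sftpa1 was 10902 and 13592 CPM in those cycling cells, against 9813 and 10883 CPM. All of these pairs lie inside 2-fold.

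Airway secretory-like cells, 26, 111, 348 and 252 at days 0, 8, 13 and 20, carried all 4 genes, with a smaller share of Sftpc than AT2-like cells. In sum, Sftpc passed Sftpd at day 8 and Sftpa1 at day 20. Sftpd had 442, 2161, 2215 and 2670 CPM in airway secretory-like cells. At day 20 this sum was above that of AT2-like cells (2230 CPM), while the median cell had 1590 CPM, against 1886 CPM in AT2-like cells. Sftpb had 921, 3230, 1277 and 2691 CPM, and 873, 2686 and 227 CPM in the median cell at days 0, 8 and 13. Sftpa1 had 2920, 3679, 1038 and 237 CPM, lowest at day 20, the day of its lowest level in AT2-like cells too. With TMM scaling, described above, the values were 6198, 2886, 812 and 182 CPM, so the highest day was day 8 in plain CPM and day 0 with TMM. In the median cell Sftpa1 had 1283, 1678 and 44.3 CPM at days 0, 8 and 13. At day 20, 123 of 216 cells with at least 20 UMIs of the 4 genes had no Sftpa1 UMI. Sftpc had 212, 2939, 735 and 608 CPM in sum but 0, 557, 351 and 223 CPM in the median cell, next to 0, 331, 553 and 309 CPM in the median macrophage-like cell. Airway secretory-like cells held 13.7, 17.0, 22.5 and 33.4% of all Sftpd UMIs in classified cells and 0.253, 1.02, 0.346 and 0.144% of the Sftpc UMIs.

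Sftpd was detected in 66.7, 92.5, 92.0 and 87.5% of airway secretory-like cells after thinning to 2000 UMIs, with 0.917, 3.13, 6.40 and 1.28% in macrophage-like cells. Median depths were 19967, 18335, 14594 and 14025 UMIs in the airway secretory-like cells, and 5830, 16823, 7744 and 9967 UMIs in macrophage-like cells. Sftpd was the most abundant of the 4 in 176 of 260 such cells at day 13, Sftpb in 108 of 216 at day 20 and Sftpa1 in 15 of 21 at day 0. The class held 2 pieces: at day 13, cells led by Bpifa1, Scgb3a2 and Cyp2f2 had Sftpa1 at 3748 CPM and Sftpd at 1944 CPM (85 cells), while cells led by Ltf, Scgb3a1 and A2ml1 had 574 and 2277 CPM (260 cells). At day 20 the Bpifa1-led piece had Sftpa1 at 530 CPM and Sftpd at 1244 CPM (120 cells), and the Ltf-led piece 59.2 and 3538 CPM (131 cells). Over the main and other settings, several of which moved cells in and out of this class, Sftpd of the cultures lay between 1193 and 3538 CPM, Sftpb between 218 and 3269 CPM, Sftpc between 327 and 5958 CPM and Sftpa1 between 33.9 and 3928 CPM. Levels of all 4 genes in these cells, and their ratios between days, thus depend on the class limits.

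Basal-like cells (46, 686 and 49 at days 8, 13 and 20) carried Sftpd and Sftpb above the level of macrophage-like cells. Sftpd was 439, 350 and 782 CPM in them, against 14.4, 31.0 and 6.09 CPM in macrophage-like cells, and made up 42.9, 40.7 and 67.1% of their surfactant UMIs. Their Sftpc, 279, 375 and 259 CPM, lay under the 347, 594 and 344 CPM of macrophage-like cells. Sftpb was 260, 76.8 and 113 CPM in the same cells, against 28.3, 35.4 and 13.3 CPM in macrophage-like cells, and was at 0 in the median cell at days 13 and 20. Sftpa1 was 45.8, 58.7 and 12.2 CPM against 33.4, 54.5 and 10.8 CPM in macrophage-like cells. Ciliated-like cells of the cultures had Sftpc at 5286, 9722 and 12208 CPM in sum (30, 129 and 49 cells) but 451, 248 and 231 CPM in the median cell, so a few cells held it, while their median Sftpd was 323, 640 and 581 CPM. AT1-like cells of day 0 (470 cells) had Sftpc at 232 CPM, below the 411 CPM of endothelial-like cells.

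Macrophage-like and fibroblast-like cells, which are not known as sources of these proteins, gave the background level, the UMIs that free RNA can leave in any droplet. The 4 genes summed to 74.8, 423, 715 and 374 CPM in macrophage-like cells at days 0, 8, 13 and 20 (625, 5950, 5463 and 4501 cells), 0.043, 0.325, 0.452 and 0.183% of the level in AT2-like cells. In fibroblast-like cells they summed to 331, 368 and 252 CPM at days 8, 13 and 20 (465, 1115 and 2415 cells), 0.254, 0.233 and 0.124% of the AT2-like level. Fibroblast-like cells were too few at day 0, where a cluster of 125 cells led by Inmt and Mfap4 had 183 CPM. Macrophage-like cells of day 0 came mostly from other clusters than those of the cultures.

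The Sftpc shares of these background cells had the same order of days as those of AT2-like cells. Sftpc made up 75.3, 82.0, 83.1 and 91.9% of the 4 genes' UMIs in macrophage-like cells and 83.1, 84.1 and 92.1% in fibroblast-like cells of days 8, 13 and 20, beside 81.2, 83.4, 85.7 and 93.2% in AT2-like cells. The Sftpa1 share was 10.6, 7.88, 7.62 and 2.88% in macrophage-like cells, beside 11.9, 7.64, 6.98 and 2.45% in AT2-like cells. The Sftpb share was 9.93, 6.70, 4.96 and 3.55% in macrophage-like cells, beside 4.77, 5.98, 4.72 and 3.21% in AT2-like cells, and at day 0 the lower bound of its interval in macrophage-like cells, 6.75%, lay above the AT2-like value. The Sftpd share was 4.11, 3.39, 4.34 and 1.63% in macrophage-like cells, beside 2.09, 2.96, 2.55 and 1.09% in AT2-like cells, so it was the larger of the pair at each day. The lowest Sftpa1 share was at day 20 in AT2-like, macrophage-like and fibroblast-like cells alike.

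Counted per barcode, the background was similar in barcodes of very different depth. At day 8 the median was 7 UMIs of the 4 genes in macrophage-like cells, 8 in fibroblast-like cells, 7 in lymphoid-like cells and 7 in barcodes under 500 genes, while the median totals of these barcodes were 16823, 19702, 3339 and 1165 UMIs. At day 13 the medians were 5, 6 and 6 UMIs in macrophage-like cells, fibroblast-like cells and low-gene barcodes, and at day 20 they were 3, 4 and 4. At day 0 the median was 0 in macrophage-like, lymphoid-like and endothelial-like cells and in low-gene barcodes. AT2-like cells had medians of 674.5, 1282, 1883 and 2802. As CPM, the same background was higher in shallower cells. With the macrophage-like cells of day 8 split into 3 equal sets by depth, it was 662 CPM in the shallowest, 444 CPM in the middle and 316 CPM in the deepest set.

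**Figure D5:**
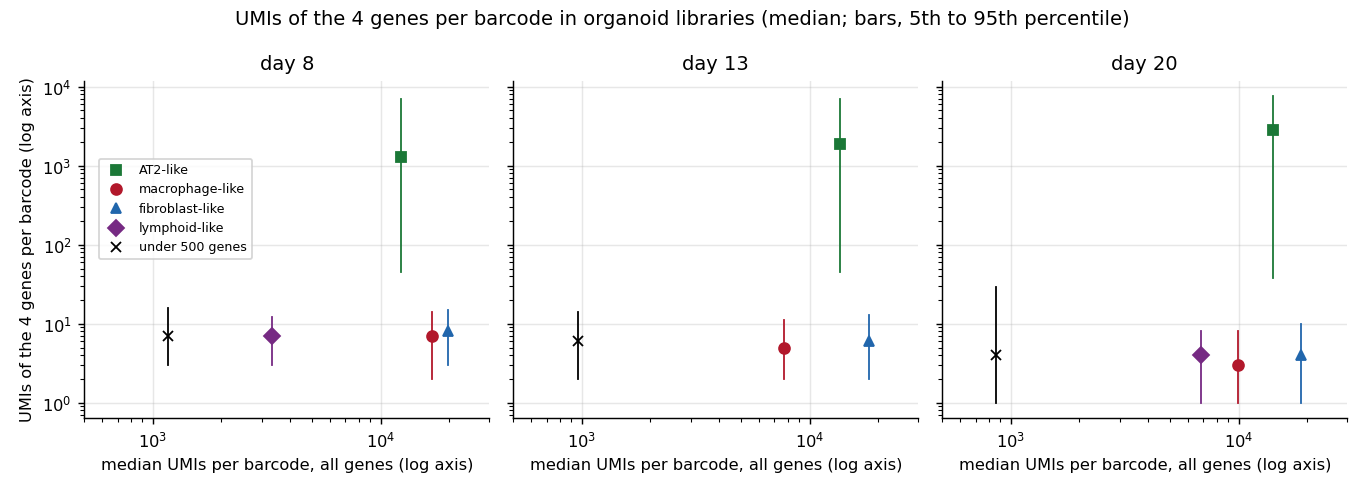
UMIs of the 4 genes per barcode (median, bars from the 5th to the 95th percentile) against the median total UMIs per barcode, both on log axes, for AT2-like, macrophage-like, fibroblast-like and lymphoid-like cells and for barcodes under 500 genes in the organoid libraries. All sets but AT2-like cells lie between 3 and 8 UMIs, across median totals of 857 to 19702 UMIs.

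Shares of cells with at least 1 Sftpc UMI were near those of AT2-like cells in the background cells of the cultures. Without thinning, 96.4, 99.8, 99.8 and 99.8% of AT2-like cells had an Sftpc UMI at days 0, 8, 13 and 20, beside 29.6, 99.0, 98.1 and 94.9% of macrophage-like cells. Cells with at least 20 UMIs of the 4 genes were 0, 0.908, 0.641 and 0.555% of macrophage-like cells and 1.51, 1.08 and 1.24% of fibroblast-like cells. The highest macrophage-like cell had 647 such UMIs and the highest fibroblast-like cell 925. At day 20 the top 1% of fibroblast-like cells held 24.2% of the UMIs of the 4 genes in that class, and without them the sum was 193 CPM in place of 252 CPM.

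The background of Scgb1a1, the club cell gene, was far larger at day 0. It was 2445 CPM in macrophage-like cells, 4755 CPM in lymphoid-like cells and 7847 CPM in endothelial-like cells of the sorted library, 29.9, 58.2 and 96.0% of its level in AT2-like cells. The sum of the 4 surfactant genes in the same classes was 0.043, 0.261 and 0.344% of the AT2-like level. These 2 sets of percentages have unlike bases. Scgb1a1 had 114934 CPM in ciliated-like cells of day 0, against 8177 CPM in AT2-like cells, whereas the surfactant genes were highest in AT2-like cells. Cxcl15, a lung epithelial chemokine, was 0.047, 0.387, 0.417 and 0.194% of its AT2-like level in macrophage-like cells at days 0, 8, 13 and 20, beside 0.043, 0.325, 0.452 and 0.183% for the surfactant sum. The other 3 genes compared had larger values at some days. Napsa was at 5.65, 1.22, 0.667 and 0.311% of its AT2-like level in macrophage-like cells, Epcam at 7.23, 0.464, 2.29 and 0.271%, and the secretoglobin Scgb3a2, which had 195, 73.2, 624 and 293 CPM in AT2-like cells themselves, at 28.8, 13.6, 45.5 and 16.4%.

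Genes known to act on or beside the surfactant proteins were counted in AT2-like cells by the same 2-fold rule. Of 12 regulators, 0 were higher and 4 lower at day 8 against day 0, beside 11.7% higher and 18.7% lower over all genes. At day 13 against day 8, 0 were called, beside 0.847% higher and 1.43% lower over all genes. At day 20 against day 13, 0 were called, beside 1.54% higher and 2.48% lower. The named regulators were Nkx2-1, the lung homeobox factor, with 483, 176, 169 and 209 CPM at days 0, 8, 13 and 20, Cebpa with 353, 164, 123 and 178 CPM, Etv5 with 462, 86.6, 103 and 126 CPM, and Nfib with 182, 142, 109 and 125 CPM. Nkx2-1, Cebpa and Etv5 were among the 4 lower at day 8, with Foxa1. At day 20 against day 0, 3 were lower, Nkx2-1, Etv5 and Foxa1, beside 20% of all genes. With TMM scaling 3 were lower at day 8 against day 0, without Cebpa, beside 12.9% of all genes. At day 20 against day 0, 1 was lower with that scaling, Etv5, and 1 other higher, Nr3c1, beside 9.17 and 15.5% of all genes. The median log2 ratio of the regulators was -0.71, -0.15 and 0.20 at the successive steps, beside -0.16, -0.07 and -0.08 for all genes.

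Of 14 genes of proprotein processing and the lamellar body, the organelle that stores surfactant, 13 were tested. At day 8 against day 0, 2 were higher and 6 lower, beside 11.7 and 18.7% of all genes. At the next 2 steps 0 were called, beside 0.847 and 1.54% higher and 1.43 and 2.48% lower over all genes. At day 20 against day 0, 1 was higher and 4 lower, beside 7.63 and 20% of all genes. With TMM scaling 2 were higher and 5 lower at day 8 against day 0, beside 17.4 and 12.9% of all genes. At day 20 against day 0, 4 were higher and 2 lower with that scaling, beside 15.5 and 9.17% of all genes. Napsa and Ctsh, proteases that process surfactant proteins B and C, had 1796, 1958, 3119 and 3012 CPM and 880, 1787, 1501 and 1364 CPM. Slc34a2, a phosphate transporter of AT2 cells, had 5818, 1187, 1246 and 1762 CPM, and Scd1, a fatty acid desaturase, 3869, 8058, 6795 and 8930 CPM. Ctsh and Scd1 were the 2 higher at day 8, while Slc34a2 was among those lower, with a log2 ratio of -2.29. The median log2 ratio of the list was -0.85, 0.02 and 0.29 at the successive steps, beside -0.16, -0.07 and -0.08 for all genes.

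Of 14 genes of protein folding in the endoplasmic reticulum, 2 were higher and 3 lower at day 8 against day 0, 1 was lower at day 13 against day 8, 0 were called at day 20 against day 13, and 5 of 13 were lower at day 20 against day 0. The shares over all genes were 11.7% higher and 18.7% lower at day 8 against day 0, near those of the list. Over all genes 1.43% were lower at day 13 against day 8 and 20% at day 20 against day 0. At day 20 against day 13, 1.54% of all genes were higher and 2.48% lower. With TMM scaling 2 were lower at day 20 against day 0, Herpud1 and Xbp1, beside 9.17% of all genes. At day 13 against day 8, 0 were lower with that scaling, beside 1.11% of all genes. At day 8 against day 0, 3 were higher and 3 lower with that scaling, beside 17.4 and 12.9% of all genes. Hspa5, the main chaperone there, had 371, 599, 488 and 331 CPM, Hsp90b1 524, 740, 553 and 445 CPM, Calr 189, 443, 301 and 266 CPM, and Pdia6 285, 367, 292 and 242 CPM. Calr was higher at day 8, with a log2 ratio of 1.23. The median log2 ratio of the list was 0.35, -0.23 and -0.30 at the successive steps, beside -0.16, -0.07 and -0.08 for all genes.

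Of 13 genes of surfactant clearance and collectin binding, mostly macrophage receptors, 5 reached 20 CPM in AT2-like cells. At day 8 against day 0, 4 were higher and 1 lower, beside 11.7 and 18.7% of all genes. With TMM scaling the counts were the same, beside 17.4 and 12.9% of all genes. The higher ones were Marco, Mrc1, Sirpa and Cd14, each with at most 1 UMI at day 0, and the summed macrophage markers given above were higher at day 8 too. These 4 passed the 20 CPM minimum only through day 8, so they could only be called higher. Cd36, a fatty acid and lipid receptor, was the lower one, with 965, 176, 206 and 240 CPM. At day 13 against day 8 and day 20 against day 13, 0 were higher and 1 and 2 lower. Over all genes 0.847 and 1.54% were higher and 1.43 and 2.48% lower at these steps. The 2 lower ones at day 20 against day 13 were Mrc1 and Cd14. Mrc1, Marco and Sirpa passed the 20 CPM minimum there only through day 13, so they could not be called higher. Of 6 cell cycle genes, 5 were tested at day 8 against day 0 and all 5 were higher, beside 11.7% of all genes. Each had 0 UMIs at day 0 and passed the 20 CPM minimum only through day 8, so no other call was possible. At day 13 against day 8, 1 was lower (0 with TMM scaling), beside 1.43% of all genes (1.11% with TMM scaling). At day 20 against day 13 all 5 were lower, beside 2.48%. Each was under 20 CPM at day 20 and passed the minimum only through day 13, so none could be called higher there. At day 20 against day 0 these genes stayed under 20 CPM and were not tested. The part of cell cycle differences in the surfactant levels was not tested.

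Across 27 sums of class by library with at least 50 cells, the genes whose log2(CPM + 1) followed each member most closely were named among 11882 genes. Sftpc was nearest to Slc34a2, Lamp3, S100g, Cxcl15 and Myh13 (Pearson r from 0.95 to 0.93), and Sftpa1 to Cxcl15, Atp6v1c2, Sfta2, Lamp3 and Slc26a9 (0.95 to 0.93). Sftpb was nearest to Cxcl15, Atp6v1c2, Elf5, Slc26a9 and Muc1 (0.97 to 0.93), and Sftpd to Muc1, Mal, Cxcl15, Atp6v1c2 and Krt23 (0.96 to 0.95). Among the members, Sftpb and Sftpd were nearest to each other (0.98), Sftpb and Sftpa1 next (0.95), and Sftpc and Sftpd farthest apart (0.82). The sums share 4 libraries and several classes per library, and the values describe these samples only.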

How the data were processed

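Droplet single-cell RNA-seq of 4 mouse samples was analysed, 1 library for each of days 0, 8, 13 and 20. The deposited matrices hold raw counts of UMIs by gene and barcode. Cell Ranger 7.0.1 and mm10 are named in the submitters' processing notes, and whether the authors corrected for free RNA is not stated there. Nuclear RNA is named as the molecule in the labels, although the protocols speak of cell suspensions. All 4 libraries listed the same features.

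Barcodes with at least 500 genes and at most 15% mt- UMIs were kept. Barcodes with too few genes numbered 1415, 2564, 1335 and 617, and 3.80, 29.3, 16.7 and 9.45% of barcodes were above the mitochondrial limit. Scrublet (in Scanpy 1.11.5) called 0, 255, 0 and 0 doublets with its automatic threshold, which did not work in 3 libraries, so the highest-scoring cells were removed at 0.8% per 1000 barcodes (523, 719, 853 and 761 cells). The libraries were clustered together (2000 variable genes less the 4 members, 30 components, 15 neighbours, Leiden resolution 1, leidenalg 0.10.2), and clusters were named X-like from 15 marker lists that hold no member. No annotation by the authors was used, so class names are rebuilt and may differ from theirs. Levels over all kept cells include doublets.

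UMIs were summed per class and library and scaled to CPM, with exact Poisson intervals, exact conditional intervals for ratios and Clopper-Pearson intervals for shares, at 95%. In ratios, sums under 3 UMIs were raised to 3, with intervals from the counts themselves. No test was made, since each day has 1 library, and intervals cover counting error only. Thinning drew 2000 UMIs per cell and left out shallower cells. The call rule was checked on simulated counts. Members, gene lists and rules were chosen with earlier results of these data known. List genes were named as the 4 with the highest CPM in AT2-like cells over the libraries, and likeness genes as the 5 with the highest r. A few genes outside this rule (Foxa1, Nr3c1, Herpud1, Xbp1, Sirpa, Ager and leading genes of clusters) were named after their values were seen. Alternatives were other clustering settings, doublets kept, a stricter cell filter, TMM scaling (edgeR 4.0.16), totals without the 4 genes, other thinning depths and other minimums. The background without its top 1% of cells and the counts of called genes with TMM scaling were added after seeing the data.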

Additional observations from a re-analysis of the deposited data

Results flagged for a closer look

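Between days 13 and 8, and between days 20 and 13, some of the surfactant protein genes had ratios of opposite direction in the sums of AT2-like and of airway secretory-like cells, with counting intervals that exclude 1 on both sides. The difference between the classes was not tested, since each day has 1 library. Sftpc had a log2 ratio of 0.32 in AT2-like cells and -2.00 in airway secretory-like cells at day 13 against day 8, and 0.49 and -0.27 at day 20 against day 13. Sftpa1 had 0.15 in AT2-like cells and -1.83 in airway secretory-like cells at day 13 against day 8. Sftpb had -0.19 in AT2-like cells and 1.08 in airway secretory-like cells at day 20 against day 13, and Sftpd -0.86 and 0.27. For Sftpb and Sftpd the direction turned within the airway secretory-like class. In the sums of its Bpifa1-led piece both were lower at day 20 than at day 13, as in AT2-like cells, with Sftpb at 2467 CPM at day 20, against 2797 CPM at day 13, and Sftpd at 1244 CPM, against 1944 CPM, though the median cell had more Sftpb at day 20 (2040 CPM) than at day 13 (1380 CPM). In the sums of its Ltf-led piece both were higher, with Sftpb at 2832 CPM at day 20, against 1023 CPM at day 13, and Sftpd at 3538 CPM, against 2277 CPM. The summed levels of Sftpc and Sftpa1 were lower in both pieces at day 13 than at day 8. Sftpc was 3529 CPM at day 8 and 2061 CPM at day 13 in the Bpifa1-led piece, and 920 and 505 CPM in the Ltf-led piece. In the same order Sftpa1 was 4206 and 3748 CPM, and 1907 and 574 CPM. The median Bpifa1-led cell had more Sftpc at day 13 (887 CPM) than at day 8 (803 CPM). The Bpifa1-led piece had 81 and 85 cells at these days, and the Ltf-led piece 27 and 260. The part of this mix in the class ratios was not tested.

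Barcodes under 500 genes, which are outside the kept cells and their classes, also carried the genes. Their Sftpc level was 3013, 5330, 5812 and 9325 CPM at days 0, 8, 13 and 20, in 1415, 2564, 1335 and 617 barcodes. Sftpc made up 76.1, 82.4, 82.5 and 91.4% of the 4 genes' UMIs there, near its share in AT2-like cells of the same libraries.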

How the results depend on the processing

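Of 120 recomputed member ratios between days in AT2-like cells, 119 stayed on their side of the 2-fold rule. The exception was Sftpa1 at day 8 against day 0, log2 -0.81 with TMM scaling, which rescales all genes of a library. Values that were not called changed sign for Sftpb under TMM scaling and for Sftpd with doublets kept (-0.07 at day 8 against day 0 and -0.01 at day 13 against day 8). All 61 recomputed background ratios stayed on their side, from log2 -11.46 to -7.54 in macrophage-like and -10.05 to -8.45 in fibroblast-like cells. These include the ratios without the top 1% of cells, a setting chosen after seeing the data. The 2-fold line lies far from all of these values, so this count says little about how steady the background level was. With a minimum of 5 CPM more genes are tested, and the counts called at day 13 against day 8 were 115 higher and 246 lower (45 and 76 at 20 CPM), and at day 20 against day 13 174 higher and 351 lower (80 and 129). With TMM scaling, chosen for these counts after seeing the data, 951 genes were higher and 562 lower at day 20 against day 0 (468 and 1227 in plain CPM). Of 368 recomputed levels and shares, 241 left their counting interval. AT2-like CPM moved by at most 1.26-fold and shares by at most 1.09-fold. Airway secretory-like CPM moved by up to 30.6-fold with each library clustered alone, and the cause was not tested. Clustered alone, day 8 had no AT2-like cluster and gave no value, and 3 settings named no airway secretory-like cluster. No paired analysis was possible because each day has 1 library. The sorted library has only 84 AT2-like cells and the lowest depth, which limits its ratios.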
